A study of Mus musculus with 6 samples.

Results

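Transcripts of 9 genes, 8 for proteases and 1 for a protease inhibitor, were followed in iNKT1 cells of the mouse thymus. These are invariant natural killer T cells, lymphocytes that recognise lipids, of the type marked by the transcription factor T-bet. The genes were taken from the table by symbol: Mmp9, the inhibitor Timp2, the membrane-bound proteases Adam8, Adam10, Adam17 and Adam19, and the lysosomal proteases Ctss, Ctsb and Ctsl. All 9 were among the 17985 genes of the table, and all 9 were among the 15691 genes tested. The genes were chosen by name with their CPM in these same 6 libraries in view, Mmp9 for its difference between the groups. Their levels, differences and calls are therefore a description, and nothing is supported by them.

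Control mice (Ctrl) carried Tbx21CreTg, a Cre recombinase transgene driven by the T-bet gene, and the reporter Rosa26-LSL-YFP+/+, which Cre switches on. The conditional knockout mice (cKO) carried these same alleles and Tgfbr2F/F, so that Cre removes part of the gene for a TGF-beta receptor subunit in cells that have used the Tbx21 promoter. Both groups were on a C57BL/6 background and untreated, and the age of the mice is not given in the sources used here. Each group had 3 libraries that the labels call independent, with no statement that each came from a separate animal, so the tests measure the spread between these libraries.

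Matrix metalloproteinases cut collagens and other proteins outside the cell and are held in check by tissue inhibitors of metalloproteinases such as the product of Timp2. ADAM proteases sit in the cell membrane and cut, or shed, the outer parts of neighbouring surface proteins. Both families use a zinc ion that is bound by histidines in the active site. Cathepsins S, B and L are cysteine proteases of endosomes and lysosomes, where they degrade proteins and trim antigens. Many of these enzymes are made as inactive precursors, so that a transcript level is not an activity.

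Coding stretches for these active sites are shown because they let the classes among the 9 genes be seen. They were read from the GENCODE M21 transcript (mouse build GRCm38) with the longest coding sequence of each gene. In the 5 metalloproteinases capitals mark the codons of the 3 zinc-binding histidines, of the catalytic glutamate after the first of them and of a conserved glycine.
Mmp9: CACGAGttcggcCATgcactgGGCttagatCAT
Adam8: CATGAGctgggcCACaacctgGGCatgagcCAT
Adam10: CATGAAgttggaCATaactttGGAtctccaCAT
Adam17: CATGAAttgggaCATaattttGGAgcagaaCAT
Adam19: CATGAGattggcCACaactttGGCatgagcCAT
The pattern occurred 1 time in the coding frame of each. Over these 33 bases Adam8 and Adam19 shared 29 and Adam10 and Adam17 shared 26, whereas Mmp9 shared between 17 and 21 with each ADAM gene. The Mmp9 stretch lies in exon 8 of Mmp9-201 at chr2:164951133-164951165, plus strand. Those of Adam8 (exon 11, chr7:139987893-139987925, minus strand), Adam17 (exon 12, chr12:21336732-21336764, minus strand) and Adam19 (exon 11, chr11:46125050-46125082, plus strand) are also within 1 exon, and that of Adam10 crosses from exon 9 to exon 10 on the plus strand of chromosome 9.

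In the 3 cathepsins the capitals mark the codon of the active-site cysteine.
Ctss: cagggttcttgtggtgccTGCtgg
Ctsb: cagggctcctgcggctctTGTtgg
Ctsl: cagggccagtgcgggtctTGTtgg
Of these 24 bases Ctsb and Ctsl shared 20, Ctss and Ctsb 17, and Ctss and Ctsl 15. For Timp2 the capitals mark codons of the first 2 cysteines of the mature inhibitor, the part that blocks the zinc site (exon 1, chr11:118354983-118355012, minus strand).
Timp2: TGCagcTGCtccccggtgcacccgcaacag

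Library totals ran from 28832779 to 68092478 reads. Values are in CPM, the reads of a gene scaled to a common library total, and 3 reads correspond to between 0.0441 and 0.104 CPM. Both replicate 3 libraries stood apart: 4406 (Ctrl) and 4590 (cKO) genes were listed at 0 there, against between 0 and 5 in the other 4. None of the 9 genes was at 0 in any library, and the lowest held 86 reads (Adam8 in Ctrl replicate 1). All 10 iNKT1 markers examined were present, among them Cd3e with a lowest value of 1126 CPM and Tbx21 with a lowest value of 680 CPM. Their median log2 difference between the groups was 0.31, and limma called none without the replicate block (3 at an unadjusted p under 0.05; edgeR called 0 and DESeq2 2) and Il2rb and Ccl5 higher in cKO with it. Klrb1c was at 179.9 CPM in Ctrl replicate 2 against 566 and 703 CPM in Ctrl replicates 1 and 3. Tgfbr2 itself fell from 449 ± 20.7 to 274 ± 16.1 CPM (SD, n = 3 per group; called in both fits described next), which left 61.0%. That count covers the whole gene, so a transcript with the deletion can still be counted. The source of the remaining Tgfbr2 reads was not tested. The authors' deposited table gave a log2 fold change of -0.645 for Tgfbr2 and marked it neither higher nor lower.

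Each difference below is a log2 fold change, cKO minus Ctrl, on the log2(CPM + 1) scale from a limma fit of the whole table, with its standard error (SE). A gene is called when its Benjamini-Hochberg adjusted p is under 0.05. Of all tested genes, 0.663% were called (0.204% higher, 0.459% lower), and 2.87% were called when the replicate number was added as a block (1.24% higher, 1.64% lower). Among the 9 genes 2 were called without the block, Mmp9 higher and Ctss lower, and 5 with it, when Adam8 was also higher and Adam19 and Timp2 lower. Groups did not overlap for 3 of the 9 (Mmp9, Ctss and Adam19), against 11.0% of all tested genes (3.89% higher, 7.10% lower). The median difference was -0.085 over the 9 genes and -0.038 over all tested genes.

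**Figure D1:**
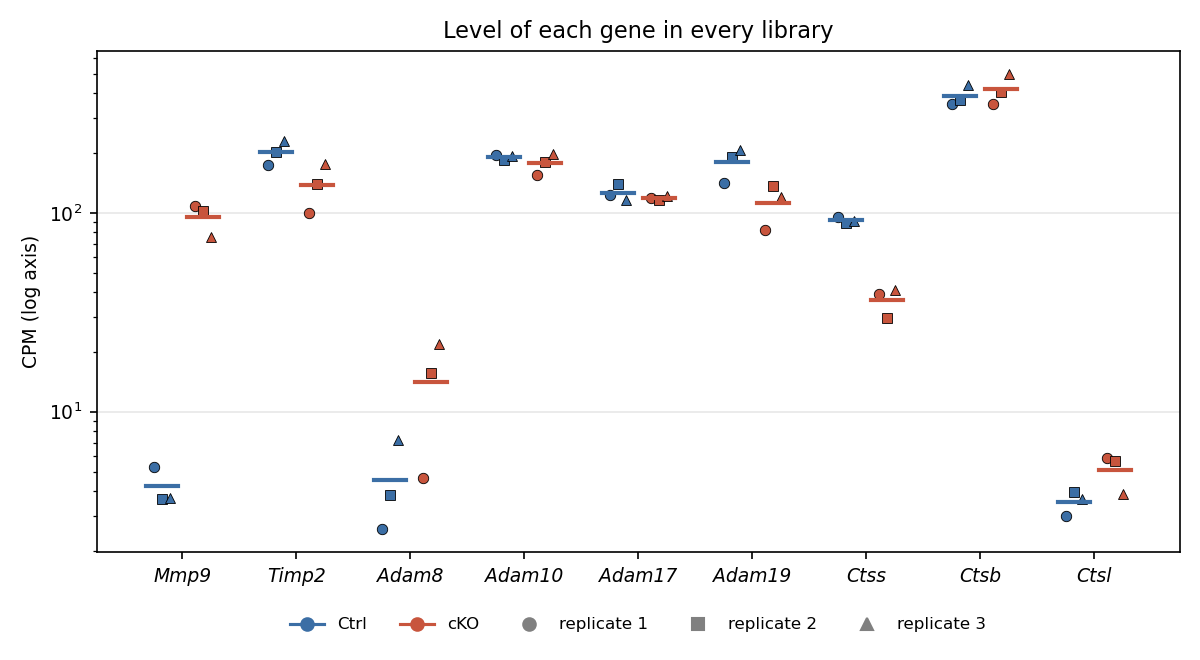
CPM (log axis) of each of the 9 genes in the 3 Ctrl and 3 cKO libraries; symbols are replicate numbers and bars are group means. Mmp9 lies between 3.64 and 5.29 CPM in Ctrl and between 75.8 and 108 CPM in cKO, while Adam10, Adam17 and Ctsb lie at similar levels in both groups.

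Mmp9 encodes gelatinase B, which cuts denatured collagen and the type IV collagen of basement membranes (ENSMUSG00000017737, chr2:164940780-164955850, plus strand). Ctrl libraries 1, 2 and 3 held 5.29, 3.64 and 3.70 CPM of Mmp9, and cKO libraries 1, 2 and 3 held 107.8, 102 and 75.8 CPM. Every cKO library was above every Ctrl library by a wide margin, and the lowest cKO value was that of replicate 3. These CPM values rest on 112 to 196 reads per Ctrl library and 3107 to 5163 reads per cKO library. Group means were 4.21 ± 0.937 CPM for Ctrl and 95.2 ± 17.1 CPM for cKO (SD, n = 3 per group), and their ratio was 22.6. On the log2 scale Mmp9 rose by 4.21 with an SE of 0.19. The difference was 4.11, 4.47 and 4.03 in the pairs of replicates 1, 2 and 3. It was 4.29 in replicates 1 and 2 alone. By its limma p-value without the block Mmp9 ranked 1 among the 15691 tested genes, which is no support, since it was chosen for this difference. With the block Cdh1 had a smaller limma p (2.45e-10) than Mmp9 (9.91e-10). No other annotated gene overlaps Mmp9 in GENCODE M21. In the authors' deposited table its log2 fold change was 4.56 and it was marked as higher.

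Neutrophils carry much MMP9 protein, so their markers were read beside it. Of the 12 neutrophil markers only 2, Mmp8 and Retnlg, were listed in the table. Their summed level ran from 0 to 14.3 CPM in Ctrl and from 0 to 15.6 CPM in cKO. Both were listed at 0 in the replicate 3 libraries, as were many other genes there. The part of neutrophils in the Mmp9 result was not tested. In whole-population RNA, more or fewer cells with a transcript and more or less of it per cell cannot be told apart.

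Timp2 encodes an inhibitor that binds the active site of matrix metalloproteinases, the product of Mmp9 included (ENSMUSG00000017466, chr11:118301069-118355740, minus strand). Timp2 had 175, 203 and 229.9 CPM in Ctrl libraries 1, 2 and 3, against 99.99, 139.8 and 176 CPM in cKO libraries 1, 2 and 3. The groups overlapped, since cKO replicate 3 was above Ctrl replicate 1, but each cKO library was below the Ctrl library of its own number. Group means were 203 ± 27.6 CPM for Ctrl and 139 ± 38.3 CPM for cKO (SD, n = 3 per group), so that cKO stood at 68.5% of the Ctrl level. Without the block the log2 difference was -0.57 (SE 0.21, 95% interval from -1.08 to -0.063) and Timp2 was not called. With the block the SE was 0.098 and it was called lower. In replicates 1 and 2 alone the difference was -0.67, without a call.

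Of the 4 ADAM genes 2 were called only in the fit with the block and 2 in neither fit. Adam19 encodes a protease known to shed neuregulin (ENSMUSG00000011256, chr11:46055992-46147343, plus strand). Adam19 had 141, 192 and 208 CPM in Ctrl libraries 1, 2 and 3, against 82.2, 136 and 120.1 CPM in cKO libraries 1, 2 and 3. Its groups did not overlap, although cKO replicate 2 and Ctrl replicate 1 were close to each other. Group means were 180 ± 34.9 CPM for Ctrl and 113 ± 27.6 CPM for cKO (SD, n = 3 per group), so that cKO stood at 62.6% of the Ctrl level. For Adam19 this is a log2 difference of -0.68 (SE 0.22), not called without the block and called lower with it (SE 0.092). In replicates 1 and 2 alone it was -0.63, without a call.

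Adam8 encodes a protease of white blood cells that is inducible in many settings (ENSMUSG00000025473, chr7:139978932-139992562, minus strand). Ctrl libraries 1, 2 and 3 held 2.56, 3.80 and 7.20 CPM of Adam8, and cKO libraries 1, 2 and 3 held 4.65, 15.6 and 21.8 CPM. Replicate 1 was the lowest and replicate 3 the highest library of each group, and cKO replicate 1 lay below Ctrl replicate 3. Group means were 4.52 ± 2.40 CPM for Ctrl and 14.04 ± 8.71 CPM for cKO (SD, n = 3 per group), and their ratio was 3.11. Adam8 had a log2 difference of 1.31 (SE 0.57, 95% interval from -0.052 to 2.68), not called without the block and called higher with it (SE 0.23). In replicates 1 and 2 alone it was 1.23, without a call. An antisense gene on the opposite strand of Adam8, Gm16201, was at 1.61 to 3.74 CPM, and without stranded counting reads of the 2 genes cannot be told apart.

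Adam10 and Adam17 encode the best-known sheddases. ADAM10 starts the cleavage of Notch receptors and cuts E-cadherin, and ADAM17 releases TNF from the cell surface. Adam10 (ENSMUSG00000054693, chr9:70678997-70780229, plus strand) had 196, 184 and 193 CPM in Ctrl libraries 1, 2 and 3, against 155, 181 and 198 CPM in the cKO libraries. The groups overlapped, with cKO replicates 1 and 2 below and cKO replicate 3 above all Ctrl libraries. The Adam10 log2 difference was -0.11 (SE 0.11, 95% interval from -0.37 to 0.15).

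Adam17 (ENSMUSG00000052593, chr12:21323509-21373632, minus strand) had 123, 140.1 and 116 CPM in Ctrl libraries 1, 2 and 3, against 119, 116 and 121 CPM in the cKO libraries. All 3 cKO libraries lay within the range of the Ctrl libraries. The Adam17 log2 difference was -0.085 (SE 0.095, 95% interval from -0.31 to 0.14). Neither gene was called with the block, where the intervals ran from -0.33 to 0.11 for Adam10 and from -0.30 to 0.13 for Adam17. These intervals leave room for a fall of up to 0.37 (Adam10) and 0.31 (Adam17) on the log2 scale, and do not reach the size seen for Mmp9 or Ctss.

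**Figure D2:**
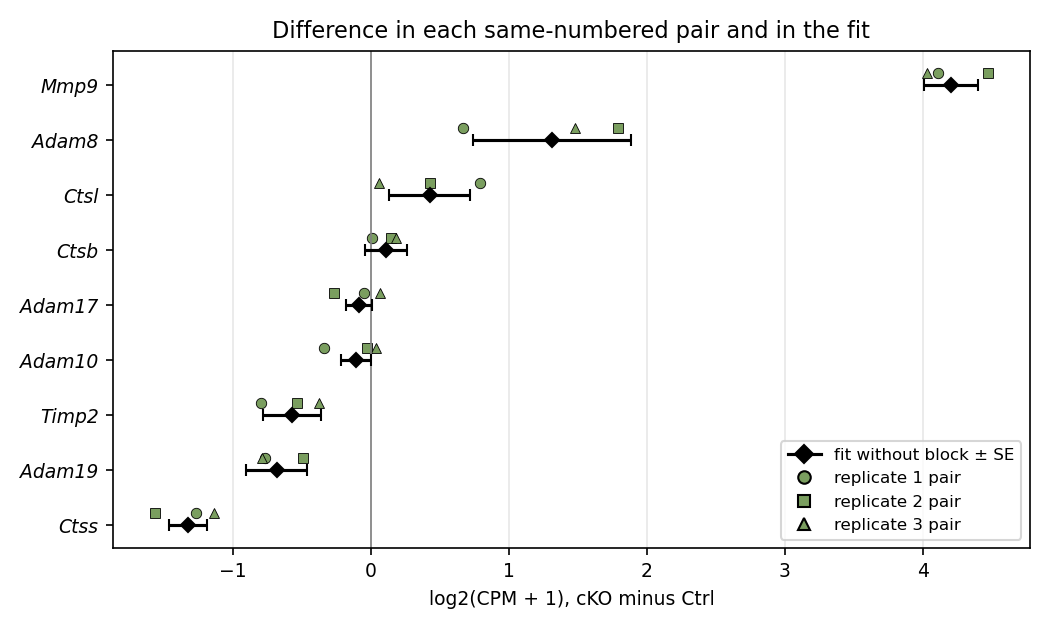
Difference in log2(CPM + 1), cKO minus Ctrl, for the 3 same-numbered pairs (green symbols) and in the fit without the block (black diamond, bar is 1 SE). All 3 pairs lie above 0 for Mmp9, Adam8, Ctsl and Ctsb and below 0 for Ctss, Adam19 and Timp2, and the pairs of Adam10 and Adam17 lie on both sides.

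Ctss encodes cathepsin S, best known for trimming the invariant chain in antigen-presenting cells (ENSMUSG00000038642, chr3:95526786-95556403, plus strand). Ctrl libraries 1, 2 and 3 held 95.2, 89.3 and 91.2 CPM of Ctss, and cKO libraries 1, 2 and 3 held 38.9, 29.5 and 40.97 CPM. The Ctrl libraries lay close together, and all cKO libraries were well below the lowest of them. Group means were 91.9 ± 3.02 CPM for Ctrl and 36.5 ± 6.15 CPM for cKO (SD, n = 3 per group), which left 39.7% of the Ctrl level. This is a log2 difference of -1.32 (SE 0.14), with -1.27, -1.57 and -1.13 in the pairs of replicates 1, 2 and 3 and -1.42 in replicates 1 and 2 alone. The authors' deposited table gave -1.26 and marked the gene as lower. No member other than Mmp9 and Ctss was marked there.

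The call of Ctss ended under edgeR (quasi-likelihood test, no block, adjusted p 0.0562) and in the limma fits without Ctrl replicate 1 (adjusted p 0.0917), Ctrl replicate 2 (0.0939) or Ctrl replicate 3 (0.0664). It held with the block (limma adjusted p 0.000412). Cells rich in cathepsin S, namely macrophages, dendritic cells and B cells, were followed by their markers. The 7 macrophage and dendritic cell markers analysed summed to 18.5 to 22.1 CPM in Ctrl and 16.8 to 23.9 CPM in cKO, with Csf1r at 0 in both replicate 3 libraries. The 4 B cell markers analysed summed to 4.32 to 15.2 CPM in Ctrl and 3.14 to 16.1 CPM in cKO, with Ebf1 at 0 in both replicate 3 libraries. Of these markers 9 were tested and none was called in either limma fit, by edgeR or by DESeq2. Without the block none had an unadjusted limma p under 0.05, and with it Cd79b did (0.0301). Log2 differences were above 0 for 3 of 5 tested macrophage and dendritic cell markers and for 2 of 4 tested B cell markers. Ms4a1 was higher in all 3 pairs, with overlap. From the 7 and 4 markers analysed, 3 scarce ones were lower in all 3 pairs without overlap of the groups. Of all tested genes 7.10% were lower without overlap. H2-Ab1, too low to be tested, was at 1.36 to 1.43 CPM in Ctrl libraries and at 0.214 to 0.936 CPM in cKO libraries, Cd79a at 2.11 to 2.91 and 1.53 to 2.02 CPM, and Cd79b at 1.38 to 1.81 and 0.428 to 1.34 CPM. The part of these cells in the Ctss result was not tested.

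The 250 bases before the RefSeq start of Ctss (GRCm38.p6, chr3:95526536-95526785, plus strand) are printed because Ctss was the member called lower in both fits. Capitals mark a match to an interferon regulatory factor element, GAAA and again GAAA with any 2 bases between, searched on both strands like the other motifs.
Ctss promoter: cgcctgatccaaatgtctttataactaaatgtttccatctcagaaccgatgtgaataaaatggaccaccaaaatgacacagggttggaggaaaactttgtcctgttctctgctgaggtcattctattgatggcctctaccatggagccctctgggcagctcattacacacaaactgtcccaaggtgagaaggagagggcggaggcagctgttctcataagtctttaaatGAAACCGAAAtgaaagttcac
The match begins 21 bases before the start. The element occurred in 978 of 32851 RefSeq windows of this length (2.98%), and among the 7 of the 9 genes matched in the RefSeq table only Ctss held it. The AP-1 motif TGANTCA, present in 6.75% of windows, was found in 1 of 3 Adam19 windows, and the SMAD motif GTCTAGAC, present in 0.167% of windows, in none of the 7 genes. Ctss also held the GC box GGGCGG, present in 32.7% of windows, as did Adam8, Adam10, Adam17 and Timp2. The E box CACGTG, present in 6.02% of windows, was found in Adam10, Ctsl and 1 of 3 Adam19 windows. A match or its absence describes these letters only.

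Ctsb encodes cathepsin B, an abundant lysosomal protease (ENSMUSG00000021939, chr14:63122462-63145919, plus strand). Ctsb had 353, 368 and 442 CPM in Ctrl libraries 1, 2 and 3, against 355, 406 and 502 CPM in cKO libraries 1, 2 and 3. Both groups had their highest value in replicate 3, and the groups overlapped. The Ctsb log2 difference was 0.11 (SE 0.15, 95% interval from -0.25 to 0.47), not called in either fit. It was -0.023 without cKO replicate 3.

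Ctsl encodes cathepsin L (ENSMUSG00000021477, chr13:64363214-64370306, minus strand) and was scarce. Ctsl had 2.97, 3.93 and 3.64 CPM in Ctrl libraries 1, 2 and 3, against 5.86, 5.64 and 3.85 CPM in cKO libraries 1, 2 and 3. cKO replicates 1 and 2 were above all Ctrl libraries, and cKO replicate 3 lay among them. The Ctsl log2 difference was 0.43 (SE 0.30, 95% interval from -0.28 to 1.13), not called in either fit. Listed genes also overlap other members. Fdft1 lies on the opposite strand of Ctsb (21.02 to 25.99 CPM) and Iah1 on that of Adam17 (22.7 to 32.4 CPM). Shared reads of these pairs are uncertain in the same way as for Adam8. The pseudogene Hmgb1-ps5 (1.43 to 1.78 CPM) lies within Ctss on the same strand, so stranded counting would not separate their reads.

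To compare levels between genes, mean CPM was divided by the annotated exon bases of each gene. In Ctrl cells Ctss (67.7 ± 2.22 CPM per 1000 exon bases), Ctsb (64.1 ± 7.83) and Timp2 (52.0 ± 7.08; SD, n = 3 per group) were highest, and neighbours among these 3 overlapped. Adam10 (38.9 ± 1.28 CPM per 1000 exon bases), Adam19 (25.3 ± 4.91) and Adam17 (17.7 ± 1.73) followed without overlap. Mmp9 (1.19 ± 0.265 CPM per 1000 exon bases), Adam8 (0.974 ± 0.518) and Ctsl (0.542 ± 0.0758) were lowest, with overlap between neighbours. In cKO cells Ctsb was highest (69.6 ± 12.4 CPM per 1000 exon bases), followed by Adam10 (36.2 ± 4.44) and Timp2 (35.6 ± 9.82). Mmp9 then stood at 26.9 ± 4.82 CPM per 1000 exon bases, beside Ctss at 26.8 ± 4.53. From Adam10 to Ctss each gene overlapped the next, and Adam17 (16.6 ± 0.367) and Adam19 (15.8 ± 3.88) lay below them and overlapped each other. Adam8 (3.03 ± 1.88) and Ctsl (0.788 ± 0.170) were lowest, without overlap. The lengths hold all annotated isoforms. With the length of 1 transcript in place of all exons, an alternative chosen after seeing the data, the order changed. In Ctrl cells Ctsb (81.7 CPM per 1000 bases) was then above Ctss (67.8), Adam17 and Adam19 were level at 28.3 and 28.2, and Ctsl was at 1.78, Adam8 at 1.45 and Mmp9 at 1.33. In cKO cells Ctsb was at 88.8 CPM per 1000 bases, Adam17 at 26.6, beside Ctss at 26.9 and above Adam19 at 17.7, and Ctsl at 2.60.

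**Figure D3:**
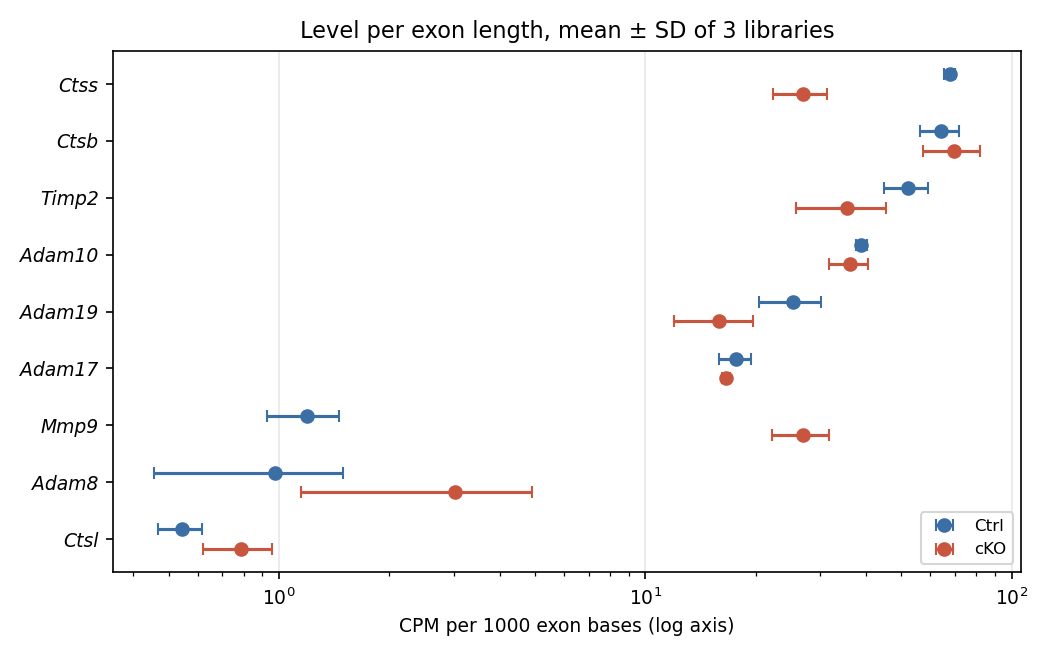
CPM per 1000 exon bases (log axis) for each gene, mean of 3 libraries with SD, Ctrl in blue and cKO in red, ordered by the Ctrl mean. Mmp9 is at 1.19 in Ctrl and at 26.9 in cKO, the level of Ctss in cKO.

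Genes whose pattern over the 6 libraries was most like that of Mmp9 were sought among the 10140 tested genes averaging 5 CPM or more, by Pearson correlation of log2(CPM + 1). With 6 libraries in 2 groups such a correlation mostly follows the group difference and is given as a description. The 5 highest were Tnfrsf25 (0.997), Gm14446 (0.997), Ajuba (0.995), Trim34a (0.989) and Il2ra (0.989). Tnfrsf25, which encodes death receptor 3, ranged from 50.2 to 56.9 CPM in Ctrl libraries and from 138.6 to 144 CPM in cKO libraries. Ajuba, a LIM-domain adaptor, ranged from 9.07 to 12.04 CPM in Ctrl libraries and from 31.5 to 38.5 CPM in cKO libraries. Trim34a shared the shape but not the size, with 52.2 to 52.8 CPM in Ctrl libraries against 56.3 to 57.2 CPM in cKO libraries, a log2 difference of 0.11.

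The wider protease system was read through 9 lists that hold 135 further genes, of which 97 were listed in the table and 88 tested. Without the block 3 of the 88 were called, Il2ra higher and Cdh1 and Mmp11 lower, against 0.663% of all tested genes. With it 11 were called, 7 higher and 4 lower, against 2.87% of all tested genes (1.24% higher, 1.64% lower). The median difference was -0.069 over the 88 genes against -0.038 over all tested genes. Groups without overlap were seen for 19 of the 88, against 11.0% of all tested genes. The lists were chosen with earlier results of these data known. Their counts are therefore a description and give no support for a change of the protease system.

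Among matrix metalloproteinases 8 were tested, and Mmp9 rose while Mmp11 fell. Mmp11 encodes stromelysin 3. Ctrl libraries 1, 2 and 3 held 11.8, 9.81 and 16.9 CPM of it, and cKO libraries 1, 2 and 3 held 0.936, 0.690 and 0.485 CPM, so that the groups were far apart. Its log2 difference was -3.00 (SE 0.33, limma adjusted p 0.0176), and leaving out 1 library at a time gave adjusted p values from 0.0330 to 0.133, with 2 of 6 fits passing. The other 6 were called in neither fit. Of these, 5 were listed at 0 in both replicate 3 libraries, among them Mmp8, Mmp16 and Mmp12, which had the highest means. Groups that share a value of 0 always overlap. Without the block the SE of these 5 ran from 0.817 to 1.23, so the missing calls say little.

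Among metalloproteinase inhibitors 3 were tested and 0 were called without the block by limma, edgeR or DESeq2, where 2 had an unadjusted limma p under 0.05. With the block Reck was called lower, as was Timp2. Reck encodes a membrane-anchored inhibitor of MMP9 and ADAM10. Reck had 40.3, 29.9 and 19.04 CPM in Ctrl libraries 1, 2 and 3, against 19.7, 9.61 and 11.6 CPM in cKO libraries 1, 2 and 3. The groups touched, since cKO replicate 1 was just above Ctrl replicate 3, and each cKO library was below its own-numbered Ctrl library. The log2 difference was -1.07 (SE 0.34), with a limma adjusted p of 0.538 without the block, 0.0158 with it and 0.167 in replicates 1 and 2 alone.

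In the ADAM list 10 genes were tested and 0 were called without the block by limma, edgeR or DESeq2 (1 at an unadjusted limma p under 0.05), and with the block only Adam19 and Adam8 were. Adam15 was at 15.5 ± 3.41 CPM in Ctrl against 19.2 ± 2.35 CPM in cKO, and Adam9 at 4.57 ± 0.710 and 6.10 ± 1.91 CPM (SD, n = 3 per group). Of 16 tested ADAMTS genes, for secreted relatives of the ADAM family, 0 were called without the block by the 3 tools (1 at an unadjusted limma p under 0.05) and 1 with it. That gene was Adamts14, a processing enzyme of procollagen, with 2.498, 2.31 and 0.529 CPM in Ctrl libraries 1, 2 and 3 against 9.47, 5.16 and 4.96 CPM in the cKO libraries (log2 difference 1.48, limma adjusted p 0.538 without and 0.00904 with the block, and 0.144 in replicates 1 and 2 alone). Every cKO library of Adamts14 was above every Ctrl library. The most abundant member, Adamts10, was at 229.5 ± 22.1 CPM in Ctrl against 177 ± 38.5 CPM in cKO (SD, n = 3 per group) and was called in neither fit.

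**Figure D4:**
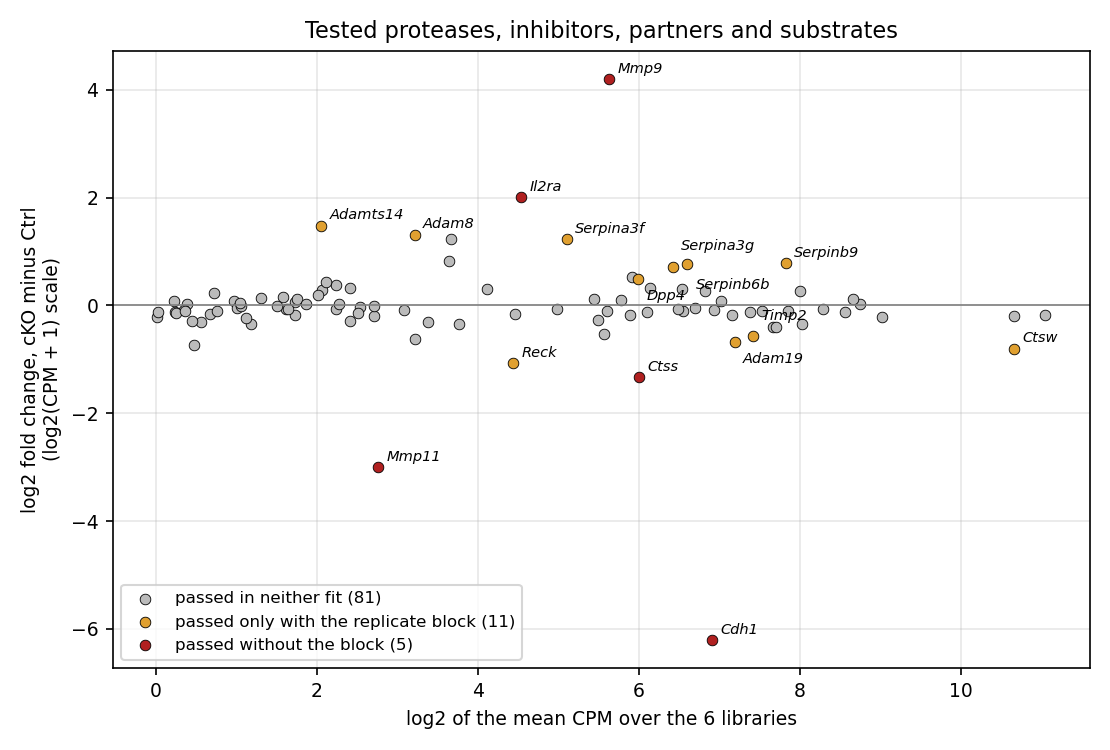
Log2 fold change (cKO minus Ctrl, log2(CPM + 1) scale) against the log2 mean CPM for the 97 tested genes of the 9 lists, the 9 members included; colours show the limma call without and with the replicate block. Mmp9 is the highest point at 4.21 and Cdh1 the lowest at -6.20, and with the block 9 of the 97 genes were called higher and 7 lower.

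Of 13 tested genes in the cathepsin list 1 was called without the block, Ctss, and 2 with it, both lower. The second was Ctsw, whose protease is found in cytotoxic lymphocytes. Ctsw had 1882, 1959 and 2341 CPM in Ctrl libraries 1, 2 and 3, against 1267, 1258 and 1026 CPM in cKO libraries 1, 2 and 3, with no overlap. Its log2 difference was -0.80 (SE 0.13), with a limma adjusted p of 0.0593 without the block and 0.00680 with it. In replicates 1 and 2 alone, a fit without the block, Ctsw was called lower (limma adjusted p 0.00157). DESeq2 called it too, and edgeR without the block did not (adjusted p 0.116). Ctsc, which encodes the activator of granzymes, was at 238 ± 20.2 CPM in Ctrl against 179.5 ± 13.9 CPM in cKO (SD, n = 3 per group), short of a call in both fits (limma adjusted p 0.285 and 0.0750). Ctsd (2254 ± 94.4 CPM in Ctrl, 1998 ± 322 CPM in cKO) and Ctsa (425 ± 15.5 and 434 ± 41.6 CPM) were abundant and not called.

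The cystatins and serpins, inhibitors of cysteine and serine proteases, had 13 tested genes. None was called without the block by limma or edgeR, where 5 had an unadjusted limma p under 0.05, and DESeq2 called 4. With the block 4 serpins were called, all higher. Serpinb9, an inhibitor of granzyme B, had 176, 159 and 161 CPM in Ctrl libraries 1, 2 and 3 against 253, 275 and 339.98 CPM in the cKO libraries, without overlap. Its log2 difference was 0.79 (SE 0.12), with a limma adjusted p of 0.0591 without the block and 0.00513 with it. Serpina3g, an inhibitor of lysosomal cathepsins, was at 65.1 ± 11.5 CPM in Ctrl against 107 ± 7.59 CPM in cKO (SD, n = 3 per group; limma adjusted p 0.00634 with the block). Serpina3f (20.6 ± 6.27 and 48.3 ± 7.41 CPM) and Serpinb6b (70.4 ± 4.38 and 124 ± 31.7 CPM) were the others. All 4 were also called higher in replicates 1 and 2 alone, a fit without the block (limma adjusted p 0.00611 to 0.0238). These genes lie in families of close copies, and reads between copies may have been split or dropped. The cystatin genes Cst7, Cst3 and Cstb were called in neither fit, with log2 differences of 0.081, -0.10 and 0.10.

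Partners that bring sheddases to the surface or activate their precursors gave 10 tested genes, and 0 were called in either limma fit or by edgeR or DESeq2 (2 at an unadjusted limma p under 0.05 without the block). Frmd8, which steadies the carrier of ADAM17, was at 558 ± 4.77 CPM in Ctrl against 481 ± 27.6 CPM in cKO (SD, n = 3 per group; limma adjusted p 0.658 without the block and 0.246 with it).

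Among 18 tested surface proteins known to be cut by these enzymes, 2 were called, and the block added none. Il2ra, the alpha chain of the interleukin-2 receptor and a known target of MMP9, rose from 8.64 ± 0.644 to 37.7 ± 1.47 CPM (SD, n = 3 per group; log2 difference 2.01, limma adjusted p 0.00215). Cdh1, which encodes the ADAM10 target E-cadherin, fell from 237 ± 38.5 to 2.45 ± 1.45 CPM (log2 difference -6.20, limma adjusted p 0.00215). Selplg, Tnfrsf1b and Cd44, the most abundant of the rest, had log2 differences of -0.20, -0.11 and -0.069 and were not called. The number of protein molecules cut from the surface was not measured.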

How the data were processed

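Transcripts of iNKT1 cells were measured by RNA-seq in 3 Ctrl and 3 cKO libraries. The submitters' processing notes name Trimmomatic 0.33, STAR 2.5.2, HTSeq 0.6.1, edgeR and build mm10; the annotation and strand setting are not given in the sources used here. The authors deposited 1 table with CPM per library, which are whole multiples of 1 read (100% of values, within 0.01 read), and, per the file headers, a likelihood-ratio score for each gene with its log2 fold change, its p-value before and after adjustment, and a log2 mean CPM. Columns named WT and KO were taken as Ctrl and cKO. The test was limma 3.58.1 (R 4.3.3) on log2(CPM + 1) for genes averaging 1 CPM or more, group as the only term, trended and robust moderation, Benjamini-Hochberg adjustment over 15691 genes and a threshold of 0.05. Same-numbered libraries deviated together (correlations of 0.855, 0.688 and 0.924 for replicates 1 to 3), although the highest correlation with another number was 0.718 for replicate 2, above its own, and 0.5785 for replicate 1. All 3 were above 0.1, and the numbers were taken to pair the libraries. The values of 0.718 and 0.5785 are above 0.1 too, so this rule cannot tell same-numbered from crossed pairs for replicates 1 and 2. Values with the replicate number as a block rest on this assumed pairing and are given where the call changes. Recovered reads were tested with edgeR 4.0.16 and DESeq2 1.42.0 as alternatives. The fits were also run on simulated counts, with an outcome not reported here. Same-numbered libraries shared their means there apart from the set changes, so that run does not test the pairing. The 95% intervals come from the SE of the limma fits and cover the spread between libraries.

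The members and lists were chosen with earlier results of these data known. Named genes are the 9 members, Tgfbr2, and from each list up to 6 genes called in either fit and up to 3 others of highest mean. Not every gene the rule names is described, and 1 gene left out of the lists is not reported here. The marker lists were neutrophil (2 of 12 analysed), macrophage and dendritic cell (7 of 12), B cell (4 of 6), double-positive thymocyte (4 of 6), thymic epithelial and stromal (6 of 12), erythroid and platelet (0 of 6) and iNKT1 (10 of 10). Markers not analysed had no row under the symbol used. Promoter windows are RefSeq's on GRCm38.p6 and coding sequences GENCODE's.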

Additional observations from a re-analysis of the deposited data

How the results depend on the processing

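Mmp9 was higher and called in all 11 alternatives (log2 difference 3.43 to 4.54) and in all 6 fits that left out 1 library (4.11 to 4.36). Counts moved with the test and the block. Against 104 called genes in the whole table, 3 further protease-system genes and 1 member besides Mmp9, the replicate block gave 451, 11 and 4. The replicate block with TMM scaling gave 513, 13 and 4, and edgeR with the replicate block 469, 13 and 4. DESeq2 gave 552 genes and 8 protease-system genes, and replicates 1 and 2 alone 291 and 9. The edgeR test without the block gave 40 genes and 0 members besides Mmp9 (1 at an unadjusted p under 0.05). Leaving out 1 library gave 14 to 85 genes, 2 to 4 protease-system genes and 0 to 1 members; these fits have fewer libraries. The number of genes fell to 22, 14 and 25 without Ctrl replicates 1, 2 and 3 and to 22 without cKO replicate 2. All 104 genes were among the 451. Ctsb ranged from -0.023 to 0.227 when 1 library was left out and changed sign only without cKO replicate 3. For all other changes the cause was not tested. Adam8, Adam19 and Timp2 passed in 3 of 11 alternatives each, the 3 with the block. Low depth limits Ctsl, Adam8 and Mmp9 in Ctrl, where a library held as few as 86 reads.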

Other observations

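Among 6 tested plasminogen activators and surface peptidases, Dpp4, which encodes the peptidase CD26, was called higher with the replicate block (limma adjusted p 0.0460) and neither without it nor in replicates 1 and 2 alone (0.884). It was read at 38.03, 54.9 and 64.1 CPM in Ctrl and 47.8, 87.3 and 90.1 CPM in cKO, replicates 1 to 3, so that the groups overlapped and all 3 pairs were higher in cKO.

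Of the 97 further protease-system genes in the table, 30 were listed at 0 in both replicate 3 libraries, 10 of them ADAMTS genes. Adamts9, for example, was at 10.9 and 8.81 CPM in Ctrl replicates 1 and 2, at 11.6 and 8.11 CPM in cKO replicates 1 and 2, and at 0 in replicate 3 of both groups.

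The remaining marker lists were read in the same way. Double-positive thymocyte markers summed to 5.53 to 17.8 CPM in Ctrl and 8.47 to 22.3 CPM in cKO. Thymic epithelial and stromal markers summed to 34.9 to 41.6 CPM in Ctrl and 60.8 to 75.3 CPM in cKO, without overlap, and those other than Pecam1 to 11.03 to 13.5 CPM in Ctrl and 10.96 to 12.8 CPM in cKO. Pecam1, which T cells also express, was called higher in cKO (limma adjusted p 0.0423), though not by edgeR without the block.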
